A study of Homo sapiens with 30 samples.

Results

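The 9 genes described here encode 5 class 3 semaphorins (SEMA3A, SEMA3B, SEMA3C, SEMA3E and SEMA3F) and 4 of their receptors (the neuropilins NRP1 and NRP2 and the plexins PLXNA1 and PLXNA2). They were chosen by gene symbol from a table of 58780 genes and followed across all 15 treatment groups. The symbols were selected on measurements of these same libraries, and since it is not recorded which of their values entered the choice, every contrast is counted as used in it. The tests below are therefore read as descriptions of each gene, and nothing is read from the number of listed genes that passed them.

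Class 3 semaphorins are secreted proteins. Most of them bind a neuropilin, which has a short cytoplasmic tail and passes the signal on through a plexin of the A family, although SEMA3E can act through plexin D1 without a neuropilin. Plexins act on small GTPases and the cytoskeleton and cause the collapse of cell extensions, and the same receptors guide axons, shape blood vessels and, through NRP1 and NRP2, take up vascular endothelial growth factors. In lung epithelium and lung tumours SEMA3B and SEMA3F are known as genes of a frequently deleted arm of chromosome 3, while SEMA3A, SEMA3C and the neuropilins take part in branching and vessel growth.

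The measurements are precision run-on sequencing (PRO-seq) libraries, which record RNA polymerases engaged on genes by letting them extend labelled nascent RNA in permeabilised cells. The cells were A549, an established human lung adenocarcinoma line. Every group held 2 libraries, and all were in 0.01% DMSO. The untreated group, labelled as a 15 min control, served for every time point. Dexamethasone (Dex), a synthetic glucocorticoid, was given at 100 nM for 15 min or 3 h. GSK591, which inhibits PRMT5, an enzyme that methylates arginines symmetrically, and MS023, which inhibits the Type I enzymes that do so asymmetrically, were each given at 1 µM for 2, 4 or 7 days. Each inhibitor was also given together with Dex for 3 h, and for 7 days before Dex was added, either for 15 min or for 3 h. The labels do not say that the 2 libraries of a group came from separate cultures, so p-values measure the spread between these libraries, which may be technical.

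Libraries held 8441211 to 13069598 counts, of which 58.7% to 78.7% fell on mitochondrial genes, leaving 2541528 to 3957508 counts for the rest of the genome. The mitochondrial share moved with treatment: it was 73.4% to 76.0% in untreated libraries and 58.7% to 64.2% in the 6 libraries that had MS023 for 7 days. It also differed within groups, at 71.2% and 61.0% with Dex and MS023 for 3 h. With GSK591 for 7 days and then Dex for 15 min it was 78.2% and 69.8%. In a refit without mitochondrial and ribosomal RNA genes, 1 of the 64 calls given below (adjusted p under 0.05) was lost. Beyond that refit the part of this share in the results was not tested. Of 5 epithelial markers, KRT8 and KRT18 were at 157 CPM and 56.5 CPM or more in every library, whereas KRT19 was at 6.34 to 33.8 CPM, EPCAM at 0.957 to 6.19 CPM and CDH1 at 1.00 to 6.65 CPM. CDKN2A, which is deleted in A549, had 0 counts in 20 of 30 libraries and 3 at most. The summed level of 4 fibroblast markers was 3.42 to 10.6 CPM, that of 3 endothelial markers 0.208 to 2.24 CPM and that of 4 leukocyte markers 0.369 to 1.73 CPM. The summed level of 3 neuronal markers was higher, 20.9 to 34.2 CPM, from RBFOX3 (9.29 to 17.3 CPM) and SYP (7.89 to 18.2 CPM), while STMN2 had 0 counts in 12 of 30 libraries. The glucocorticoid targets FKBP5 and TSC22D3 rose by 2.90 and 2.89 on the log2 scale with Dex for 3 h (adjusted p = 8.87e-08 and 2.08e-22, quasi-likelihood test of edgeR, p-values adjusted by Benjamini-Hochberg). Between the libraries of a group the correlation of log2 CPM over 11117 genes was 0.960 to 0.984, apart from 0.924 for Dex and MS023 together for 3 h.

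All 9 genes passed the filter on low counts. Levels are given as CPM, read counts relative to the TMM-scaled library total, and between genes only as CPM per kilobase of exon. In untreated cells the coreceptors stood highest, NRP1 at 4.51 and NRP2 at 2.80 CPM per kb, followed by SEMA3C at 1.98, SEMA3B at 1.73, PLXNA1 at 0.840 and SEMA3F at 0.657 CPM per kb. The lowest were SEMA3A at 0.430, PLXNA2 at 0.224 and SEMA3E at 0.193 CPM per kb. The feature counted is not given in the sources used here, so lengths other than those of exons could change this order. Across the 15 groups the mean level of SEMA3A varied 18.5-fold from the lowest to the highest group, and that of SEMA3E 10.4-fold. Both ratios rest on few counts: without Dex for 3 h replicate 2 that of SEMA3A was 31.4, and that of SEMA3E was 8.21 without MS023 for 2 days replicate 1 (1 count) and 34.8 without replicate 2 (6 counts). The ratio was 6.43-fold for PLXNA2, 3.87-fold for SEMA3F and 3.55-fold for SEMA3B. The other 4 genes varied less, from 2.68-fold for SEMA3C to 1.93-fold for PLXNA1.

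**Figure D1:**
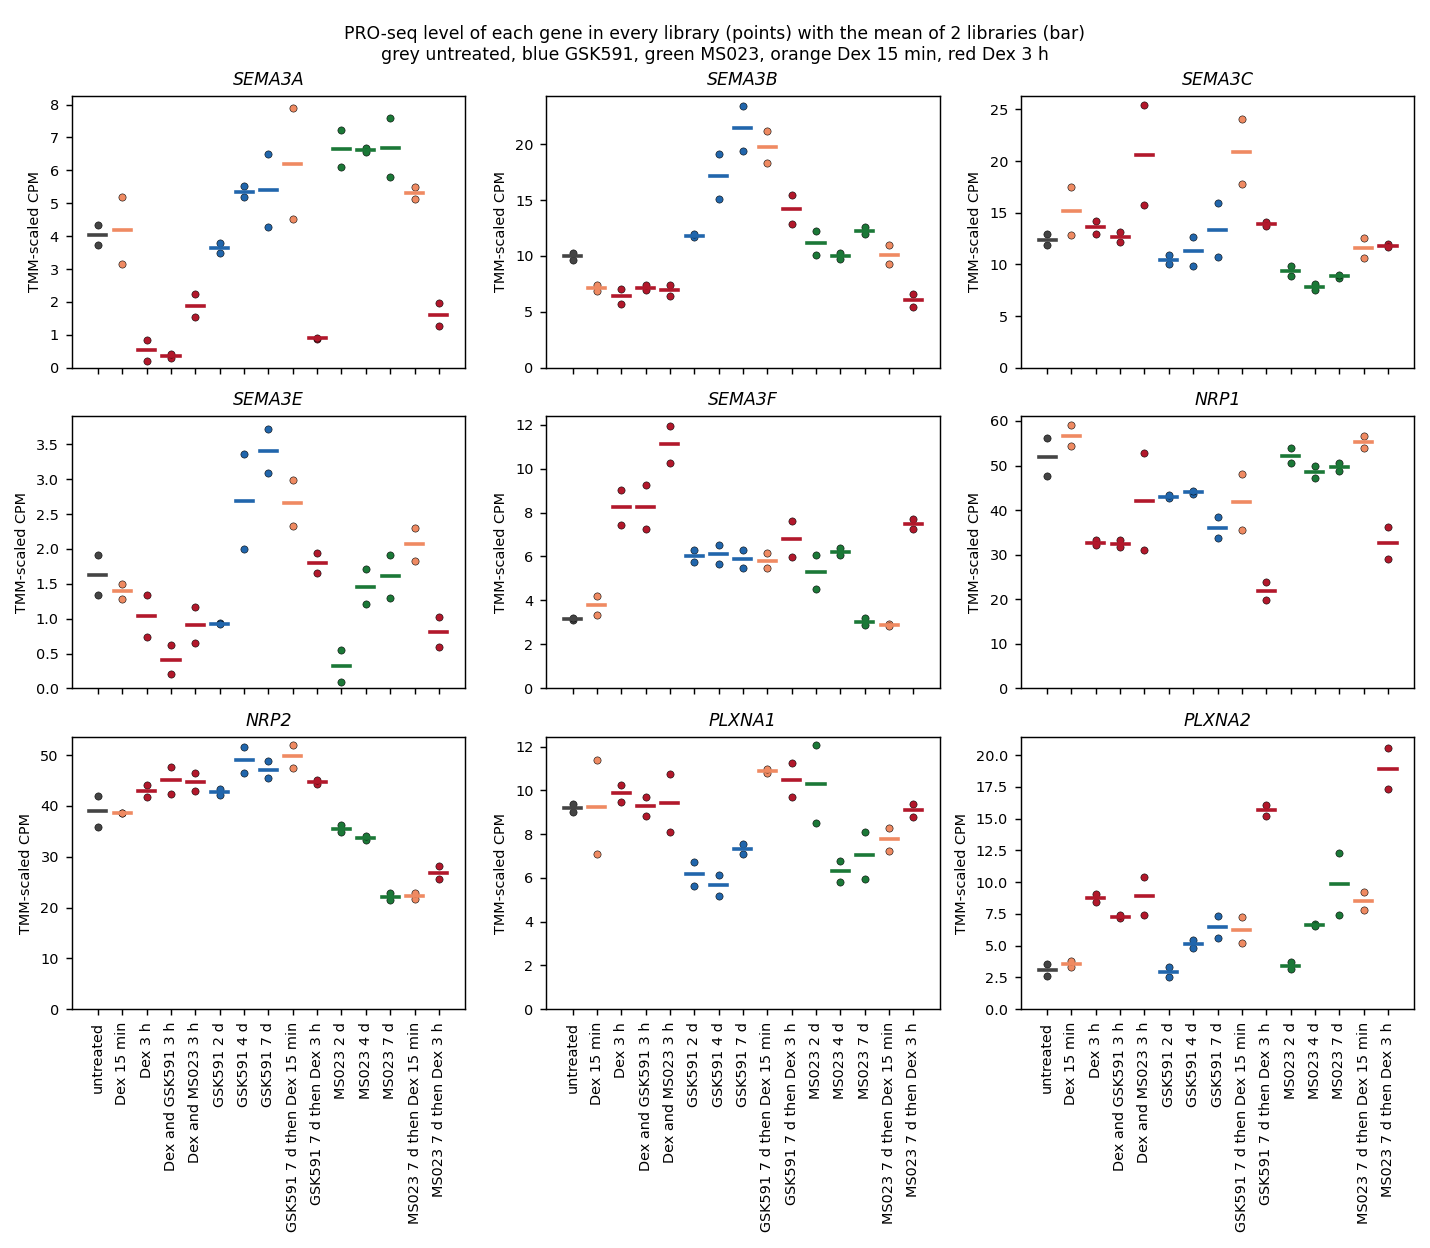
Levels of the 9 genes in each library of the 15 groups, in TMM-scaled CPM on a linear axis from 0. Points are single libraries, 2 in each group, and bars their mean. SEMA3A drops to between 0.213 and 2.25 CPM in the groups that had Dex for 3 h, and PLXNA2 reaches 17.4 and 20.5 CPM in the group with MS023 for 7 days and then Dex for 3 h.

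SEMA3F and SEMA3B lie close together on chromosome 3, at 50155045 to 50189075 and 50267558 to 50277546, both on the plus strand (GRCh38, GENCODE 29). SEMA3C (80742538 to 80922359), SEMA3E (83363238 to 83649113) and SEMA3A (83955777 to 84492724) lie on the minus strand of chromosome 7. NRP1 is on chromosome 10 (33177492 to 33336262, minus), NRP2 on chromosome 2 (205681990 to 205798133, plus), PLXNA1 on chromosome 3 (126988594 to 127037392, plus) and PLXNA2 on chromosome 1 (208022242 to 208244320, minus). Antisense genes overlap 4.87% of the exonic bases of NRP1, 2.28% of those of SEMA3F and 1.06% of those of NRP2. Whether the counting used strand is not given in the sources used here, so reads in those stretches cannot be assigned to one strand.

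SEMA3F, PLXNA2 and SEMA3B were called higher than untreated cells in 11, 10 and 4 of 14 treated groups, the first 2 of them also with Dex alone. SEMA3B was called lower in 2. SEMA3C and NRP2 were called higher in 2 groups each and lower in 1 and 3, and only their site counts are given. The sequences upstream of SEMA3F, PLXNA2 and SEMA3B are shown. Each is the 250 bases before the RefSeq start (GRCh38.p14), 5′ to 3′ on the gene's own strand, and capitals mark GC boxes (GGGCGG, or CCGCCC on the other strand), the site of Sp1-type factors.
SEMA3F, chr3:50154808-50155057, plus strand: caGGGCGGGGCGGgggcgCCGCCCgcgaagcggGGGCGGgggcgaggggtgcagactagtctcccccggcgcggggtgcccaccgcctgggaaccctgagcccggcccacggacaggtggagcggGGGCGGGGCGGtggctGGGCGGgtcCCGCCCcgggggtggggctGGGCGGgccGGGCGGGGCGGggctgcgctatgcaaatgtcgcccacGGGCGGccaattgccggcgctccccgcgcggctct
PLXNA2, chr1:208244385-208244634, minus strand: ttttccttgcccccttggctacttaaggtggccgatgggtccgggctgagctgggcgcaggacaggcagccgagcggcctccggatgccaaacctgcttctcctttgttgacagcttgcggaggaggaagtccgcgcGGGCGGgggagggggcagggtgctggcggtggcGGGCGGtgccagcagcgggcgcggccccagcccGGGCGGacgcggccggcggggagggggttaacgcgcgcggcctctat
SEMA3B, chr3:50267402-50267651, plus strand: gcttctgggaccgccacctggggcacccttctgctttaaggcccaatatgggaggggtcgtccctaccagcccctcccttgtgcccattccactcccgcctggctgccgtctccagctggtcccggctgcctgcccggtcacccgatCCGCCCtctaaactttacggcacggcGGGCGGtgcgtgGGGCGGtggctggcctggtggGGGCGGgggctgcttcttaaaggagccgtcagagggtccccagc
SEMA3F has 12 GC boxes in this window, overlapping ones included, and 0.0484% of the 35116 RefSeq windows of this length have as many. PLXNA2 has 3 (13.9% of windows have as many) and SEMA3B has 4 (7.63%). A GC box is present in 42.6% of all windows. None of the 3 windows holds a glucocorticoid receptor half-site (AGAACA or TGTTCT, present in 12.4% of windows), the full palindromic glucocorticoid response element (in 0.00285%) or an AP-1 site (TGANTCA, in 6.57%). The table matched 7 of the 9 genes, all but SEMA3A and NRP1. In the other 4 windows NRP2 has 3 GC boxes and PLXNA1 has 5, while SEMA3C and SEMA3E have 0, with a GC content of 36.4% and 46.4%. The RefSeq start used lies 5479 bases from the GENCODE start for PLXNA1 and 511 bases from it for NRP2. For the other genes the distance is at most 94 bases.

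Comparisons against untreated cells share the same 2 untreated libraries and are not independent of one another. With Dex for 15 min, 0 of the 9 genes passed an adjusted p of 0.05, against 1.26% of the 22919 genes tested by the edgeR quasi-likelihood test (1 of the 9, SEMA3B, had an unadjusted p under 0.05, and DESeq2 called 0, with no adjusted p for 1). With Dex for 3 h, 5 of 9 were called, 2 higher and 3 lower, against 10.5% of all genes (6.11% higher and 4.41% lower). Dex with GSK591 for 3 h gave 5 of 9 (11.9% of all genes) and Dex with MS023 gave 4 of 9 (12.0%). GSK591 alone gave 1, 4 and 4 of 9 at 2, 4 and 7 days, where 5.64%, 17.2% and 13.2% of all genes were called. MS023 alone gave 2, 3 and 2 of 9, where 10.4%, 14.2% and 13.6% were called. After 7 days of GSK591, Dex for 15 min gave 5 of 9 (15.5%) and for 3 h 5 of 9 (26.8%). After 7 days of MS023 these were 2 of 9 (17.2%) and 6 of 9 (21.9%). Over these 14 comparisons 48 of 126 pairs of gene and comparison were called, 29 higher and 19 lower. The mean share of all genes called over the same comparisons was 13.7%, not split by direction. In this fit SEMA3F was called higher in 11 of 14 and PLXNA2 in 10 of 14, both never lower. SEMA3A and NRP1 were each called lower in 5 of 14 and never higher in this fit. Calls were lost without single libraries, most of them without untreated replicate 2, which enters all 14 comparisons. Comparisons that did not hold the library left out kept their calls from the full fit. The share of all genes called without single libraries is not given, so this loss is not read as one of these genes.

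SEMA3A, the ligand that signals through NRP1 and an A-type plexin and is best known for repelling axons, was the gene that fell furthest with Dex. Its level was 4.34 and 3.73 CPM in the untreated libraries (39 and 37 counts) and 0.213 and 0.855 CPM after Dex for 3 h (2 and 7 counts). With Dex and GSK591 together it was 0.306 and 0.416 CPM (3 and 4 counts), and with Dex and MS023 together 1.53 and 2.25 CPM (14 and 23 counts). All 6 of these libraries lay below both untreated libraries. The fall with Dex alone was 7.69-fold (log2 fold change -2.94, SE 0.448, 95% interval -3.90 to -1.99, adjusted p = 2.37e-06). With GSK591 added it was 10.8-fold (adjusted p = 1.90e-07) and with MS023 added 2.10-fold (adjusted p = 0.0260). This last call was lost without untreated replicate 1 (adjusted p = 0.155), without untreated replicate 2 (0.0670) and without Dex and MS023 replicate 1 (0.144), with DESeq2 (0.1004) and when only the compared groups were fitted (0.151). Within 15 min of Dex the level was 3.16 and 5.20 CPM, and the groups overlapped. Since these are bulk libraries, fewer transcribing cells and less transcription per cell cannot be told apart.

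The fall of SEMA3A with Dex was also seen in cells that had an inhibitor for 7 days. After GSK591 the level was 6.51 and 4.29 CPM, and with Dex for 3 h added it was 0.882 and 0.917 CPM, a 5.99-fold fall (log2 fold change -2.58, SE 0.385, adjusted p = 1.47e-06). After MS023 it was 7.58 and 5.79 CPM, and with Dex added 1.98 and 1.25 CPM, a 4.11-fold fall (log2 fold change -2.04, SE 0.289, adjusted p = 4.39e-07). In both settings the groups did not overlap. The difference between the Dex effect after MS023 and the effect without it was 0.90 on the log2 scale (95% interval -0.35 to 2.15, adjusted p = 0.699), and after GSK591 0.36 (interval -1.05 to 1.78, adjusted p = 0.941). Inhibitors alone left SEMA3A between 3.50 and 7.58 CPM. MS023 gave log2 values of 0.72, 0.72 and 0.73 at 2, 4 and 7 days, all 6 libraries above both untreated ones, with adjusted p = 0.0792, 0.0627 and 0.0569.

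SEMA3F, a ligand with a preference for NRP2 that is known to restrain tumour growth and vessel formation, went up with Dex. Untreated libraries had 3.11 and 3.22 CPM and Dex for 3 h gave 7.44 and 9.04 CPM. Dex with GSK591 gave 7.25 and 9.26 CPM, and Dex with MS023 11.9 and 10.3 CPM. All 6 libraries stood above both untreated ones by more than the spread within a group. The rise with Dex alone was 2.58-fold (log2 fold change 1.37, SE 0.234, 95% interval 0.87 to 1.87, adjusted p = 2.28e-05). It was 2.60-fold with GSK591 added (adjusted p = 1.50e-05) and 3.48-fold with MS023 added (adjusted p = 2.17e-08). At 15 min the level was 3.36 and 4.20 CPM, with an adjusted p of 0.939.

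SEMA3F also differed from untreated cells under the inhibitors alone. With GSK591 it stood at 6.32 and 5.75 CPM on day 2, 5.67 and 6.52 on day 4, then 6.28 and 5.49 on day 7. These are rises of 0.92, 0.94 and 0.89 on the log2 scale (adjusted p = 0.0174, 0.00372 and 0.0102). With MS023 it was 6.06 and 4.52 CPM at 2 days and 6.40 and 6.05 at 4 days, rises of 0.73 and 0.97 (adjusted p = 0.0423 and 0.00230), and 3.19 and 2.90 at 7 days, a log2 value of -0.06 (interval -0.60 to 0.48). The level under MS023 at 7 days was thus at that of untreated cells, and the groups overlapped. Several of these calls rest on single libraries. The GSK591 call at 2 days was lost without any 1 of the 4 libraries compared (adjusted p = 0.0879 to 0.133) and with DESeq2 (0.0589). At 4 days it was lost without GSK591 replicate 2 (0.0579), and at 7 days without untreated replicate 1 (0.0786), untreated replicate 2 (0.0720) or GSK591 replicate 1 (0.132). The MS023 call at 2 days was lost without untreated replicate 1 (0.210), untreated replicate 2 (0.170) or MS023 replicate 1 (0.398), with DESeq2 (0.139) and with no filter on low counts (0.0994). The MS023 call at 4 days was kept in every alternative run.

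The response of SEMA3F to Dex after 7 days of inhibitor took different values in the 2 settings. After MS023, Dex for 3 h brought it from 3.19 and 2.90 to 7.69 and 7.23 CPM, a 2.45-fold rise (log2 fold change 1.29, SE 0.212, adjusted p = 9.38e-06). After GSK591 it was 6.28 and 5.49 CPM before and 7.61 and 5.96 CPM after Dex, a log2 value of 0.20 (SE 0.223, interval -0.27 to 0.68, adjusted p = 0.670), and the groups overlapped. The difference between the Dex effect after GSK591 and without it was -1.17 on the log2 scale (SE 0.325, interval -1.86 to -0.47, unadjusted p = 0.000767). It did not pass the adjustment over all genes (adjusted p = 0.128), in a test that called 0.223% of all genes. The same difference for MS023 was -0.08 (interval -0.76 to 0.61).

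**Figure D2:**
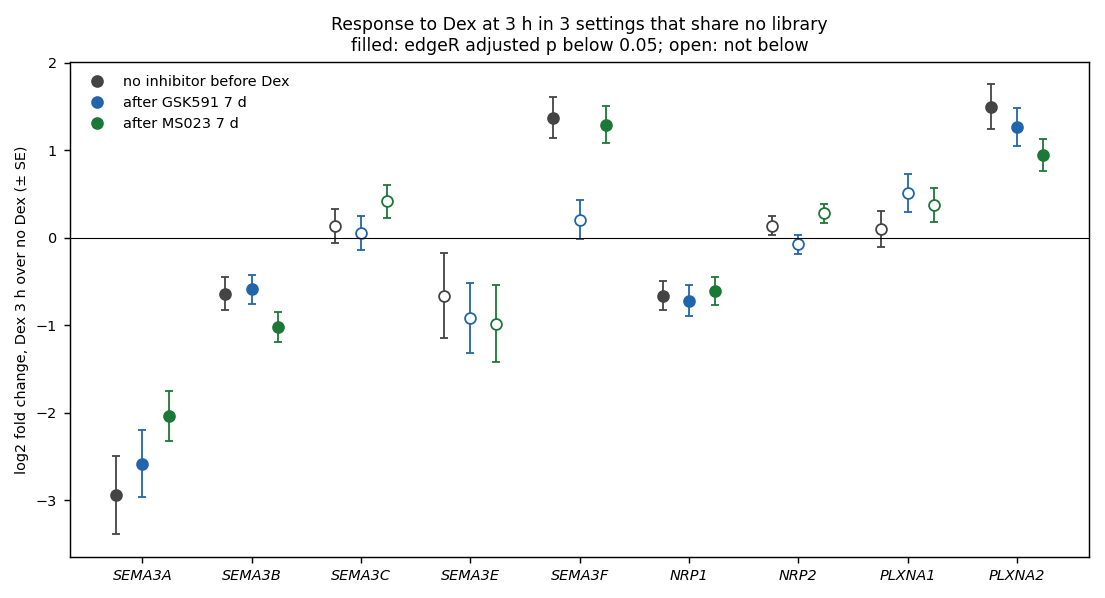
Log2 fold change of each gene with Dex for 3 h, in cells without inhibitor and in cells that had GSK591 or MS023 for 7 days, each against its own cells without Dex. Error bars are 1 SE from the edgeR fit over all 30 libraries, and filled points passed an adjusted p of 0.05. SEMA3A is lower in all 3 settings (-2.94, -2.58 and -2.04) and PLXNA2 higher (1.50, 1.26 and 0.94), while SEMA3F is at 1.37, 0.20 and 1.29.

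SEMA3B, the neighbour of SEMA3F and a ligand known for causing death of lung cancer cells, moved the other way with Dex. It was at 9.68 and 10.3 CPM in untreated cells and at 7.02 and 5.74 CPM after Dex for 3 h, a 1.56-fold fall (log2 fold change -0.64, SE 0.192, adjusted p = 0.0219). That call was lost with DESeq2 (adjusted p = 0.0935) and without untreated replicate 1 (0.0750), untreated replicate 2 (0.152) or Dex replicate 2 (0.244). The fall was larger after 7 days of MS023, from 12.0 and 12.6 to 5.42 and 6.64 CPM (2.03-fold, log2 fold change -1.02, SE 0.170, adjusted p = 1.15e-05), and that call was kept in every alternative run. After 7 days of GSK591 it went from 19.4 and 23.5 to 12.9 and 15.5 CPM (1.51-fold, log2 fold change -0.59, adjusted p = 0.0103). This call was lost with DESeq2 (0.0578) and without GSK591 replicate 2 (0.189) or GSK591 then Dex replicate 1 (0.177). The Dex effects with and without an inhibitor differed by 0.05 for GSK591 (interval -0.48 to 0.58) and by -0.39 for MS023 (interval -0.94 to 0.17).

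GSK591 alone raised SEMA3B. It was at 11.7 and 12.0 CPM at 2 days (log2 value 0.24, adjusted p = 0.489), then 19.1 and 15.1 CPM on day 4, and 19.4 and 23.5 CPM on day 7. The rises were 1.72-fold at 4 days (log2 fold change 0.78, SE 0.167, adjusted p = 0.000546) and 2.14-fold at 7 days (1.10, SE 0.167, adjusted p = 3.36e-06). The value at 4 days was no longer called without GSK591 replicate 1 (adjusted p = 0.0569). With MS023 the level stayed between 9.76 and 12.6 CPM, and log2 values were 0.16, 0.00 and 0.30 at 2, 4 and 7 days, none of them called. The inhibitors therefore differed for this gene, by 0.78 at 4 days (interval 0.44 to 1.12, adjusted p = 0.000791) and by 0.80 at 7 days (interval 0.47 to 1.13, adjusted p = 0.000298), GSK591 minus MS023. The difference at 4 days was lost without GSK591 replicate 1 (0.114).

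SEMA3C, a ligand that promotes migration and growth in several tumours, stayed within narrower bounds. Untreated libraries had 12.9 and 11.9 CPM and Dex for 3 h 14.2 and 12.9 CPM (log2 value 0.14, interval -0.28 to 0.55). Dex with MS023 gave 15.7 and 25.4 CPM, a rise of 0.74 (adjusted p = 0.00492) that was lost without the second of these libraries (log2 value 0.35, adjusted p = 0.354), without untreated replicate 2 (0.0822) and when only the compared groups were fitted (0.175). MS023 at 2 days gave 9.88 and 8.86 CPM and at 7 days 8.71 and 8.98 CPM. Those libraries lay below both untreated ones, but the log2 values of -0.40 and -0.49 were not called. MS023 at 4 days gave 8.10 and 7.48 CPM, also below both, a fall of 0.67 (log2 fold change -0.67, SE 0.198, adjusted p = 0.0173). It was lost without any 1 of the 4 libraries compared (adjusted p = 0.0587 to 0.142) and with DESeq2 (0.0735). GSK591 for 7 days and then Dex for 15 min gave 17.8 and 24.1 CPM, a rise of 0.77 (adjusted p = 0.00276), lost without untreated replicate 2 (0.0574) or GSK591 then Dex replicate 2 (0.177). In the 2 groups with rises, the second library stood well above the first.

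SEMA3E, whose main receptor is plexin D1, had the fewest counts, 1 to 35 in a library. It was at 1.33 and 1.91 CPM in untreated cells and at 0.744 and 1.34 CPM after Dex for 3 h, a log2 value of -0.66 (interval -1.69 to 0.37). The 2 calls were lower values: 0.204 and 0.624 CPM with Dex and GSK591 for 3 h (2 and 6 counts, log2 fold change -1.96, SE 0.562, adjusted p = 0.0142) and 0.0978 and 0.554 CPM with MS023 for 2 days (1 and 6 counts, -2.26, SE 0.575, adjusted p = 0.00637). Each was lost without 1 library: without untreated replicate 2 (adjusted p = 0.167 and 0.101) and without the lower treated library (0.238 and 0.170). DESeq2 did not call the first (0.0644). At 4 and 7 days of MS023 the values were -0.16 and -0.02 on the log2 scale, so the low value at 2 days was not seen again. GSK591 at 7 days gave 3.72 and 3.08 CPM, above both untreated libraries, with an adjusted p of 0.0734.

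NRP1, the coreceptor for SEMA3A and for vascular endothelial growth factors, had the highest level per length of the 9 genes in untreated cells and fell with Dex. After Dex for 3 h it stood below NRP2, at 2.84 against 3.09 CPM per kb. It was at 56.2 and 47.7 CPM in untreated cells, 54.3 and 59.1 CPM after Dex for 15 min and 33.3 and 32.1 CPM after Dex for 3 h. Dex with GSK591 gave 31.7 and 33.3 CPM. Dex with MS023 gave 31.2 and 52.8 CPM, its 2 libraries being far apart. The fall with Dex alone was 1.59-fold (log2 fold change -0.67, SE 0.165, 95% interval -1.02 to -0.31, adjusted p = 0.00758). It was 1.60-fold with GSK591 added (adjusted p = 0.00586) and was not called with MS023 added (-0.30, adjusted p = 0.251). Without untreated replicate 1 the first 2 calls were lost (adjusted p = 0.106 and 0.0845). The first was also lost without Dex replicate 1 (0.0510) or replicate 2 (0.0754), and the second without Dex and GSK591 replicate 1 (0.0620).

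NRP1 also fell with Dex in cells that had an inhibitor for 7 days. After GSK591 for 7 days it was 38.4 and 33.8 CPM, and with Dex for 3 h added 19.9 and 24.0 CPM (1.65-fold, log2 fold change -0.72, SE 0.176, adjusted p = 0.00699). After MS023 for 7 days it was 50.5 and 48.8 CPM, and with Dex added 36.1 and 28.9 CPM (1.53-fold, log2 fold change -0.61, SE 0.158, adjusted p = 0.00976). The Dex effects differed from that in cells without inhibitor by -0.06 for GSK591 (interval -0.57 to 0.46) and by 0.06 for MS023 (interval -0.43 to 0.54). The call after GSK591 was lost without GSK591 replicate 1 (0.0973) or GSK591 then Dex replicate 1 (0.0980). After MS023 it was lost without MS023 replicate 1 (0.0973), MS023 replicate 2 (0.0679) or MS023 then Dex replicate 2 (0.194). GSK591 at 7 days by itself gave a 1.44-fold lower level than untreated cells (log2 fold change -0.52, adjusted p = 0.0341), a call lost with DESeq2 (0.0738), with median-ratio scaling (0.0667) and without untreated replicate 1 (0.236), GSK591 replicate 1 (0.0687) or GSK591 replicate 2 (0.222). The lowest level of all groups was that with GSK591 for 7 days and then Dex for 3 h, 2.37-fold below untreated cells (log2 fold change -1.24, SE 0.171, adjusted p = 2.94e-06), and this call was kept in every alternative run.

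NRP2, the coreceptor that SEMA3F prefers, did not follow NRP1. With Dex for 3 h it was 41.7 and 44.1 CPM against 42.0 and 35.9 CPM in untreated cells (log2 value 0.14, interval -0.10 to 0.37). With MS023 it was 34.8 and 36.3 CPM on day 2, 33.3 and 34.0 on day 4, and 22.9 and 21.4 on day 7. The fall was called at 7 days, 1.76-fold (log2 fold change -0.81, SE 0.112, interval -1.05 to -0.57, adjusted p = 5.09e-07), and the libraries lay well below both untreated ones. The values at 2 and 4 days, -0.13 and -0.21, were not called by edgeR. With Dex added after 7 days of MS023 the level was 21.7 and 22.8 CPM at 15 min and 28.1 and 25.5 CPM at 3 h, both called below untreated cells (-0.81 and -0.54, adjusted p = 4.00e-07 and 0.000229). GSK591 gave 51.6 and 46.4 CPM at 4 days (log2 fold change 0.33, adjusted p = 0.0261), a call lost without untreated replicate 2 (0.337) or GSK591 replicate 1 (0.296), or with no filter on low counts (0.0948). GSK591 for 7 days and then Dex for 15 min gave 52.0 and 47.4 CPM (0.35, adjusted p = 0.0209), lost without untreated replicate 2 (0.361) or GSK591 then Dex replicate 1 (0.186), with no filter (0.159) and when only the compared groups were fitted (0.0504). The inhibitors differed for NRP2 by 0.54 at 4 days (interval 0.31 to 0.77, adjusted p = 0.000498) and by 1.09 at 7 days (interval 0.85 to 1.33, adjusted p = 4.55e-10), GSK591 higher. The first of these was lost without GSK591 replicate 1 (0.0514).

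The mitochondrial share was 58.7% to 64.2% with MS023 for 7 days and 62.2% to 66.1% with MS023 alone for 2 or 4 days. Both ranges lay below that of untreated libraries (73.4% to 76.0%). The values for MS023 depend on the scaling. With total counts as the only scaling the median of all genes was itself 1.02 higher on the log2 scale at 7 days of MS023 than in untreated cells. NRP2 was then at 0.21, which is -0.81 relative to that median, and PLXNA2 at 2.71, which is 1.68 relative to it. Subtracting the median undoes a change of scaling by construction, so these relative values are no check on it. Changes are stated relative to the median of all genes, as TMM scaling assumes. Under total counts without that subtraction, 37 of the 64 calls were still called in the same direction, 18 kept their direction but were not called, and 9 changed direction. Among the 9 are all 3 for NRP2 with 7 days of MS023. For NRP2 with MS023 and then Dex for 3 h the value was 0.48 with an adjusted p of 0.0392, a call in the opposite direction. The difference between the inhibitors for NRP2 at 7 days was 0.05 (adjusted p = 0.827). The split of calls against untreated cells was 51 higher and 5 lower, in place of 29 and 19. Shares of all genes by direction are not given for either scaling. The median of all genes itself reached 1.02 in these comparisons, so this move toward higher calls is not read as one of the 9 genes. The lists of lost calls in the other paragraphs of the Results leave out this scaling. Among the 18 calls lost with it were NRP1 and SEMA3B with Dex for 3 h (adjusted p = 0.327 and 0.337) and NRP1 with Dex and GSK591 (0.404). Also among them were SEMA3A with Dex and MS023 (0.309) or MS023 and then Dex for 3 h (0.508), and PLXNA1 with GSK591 for 4 days (0.509).

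**Figure D3:**
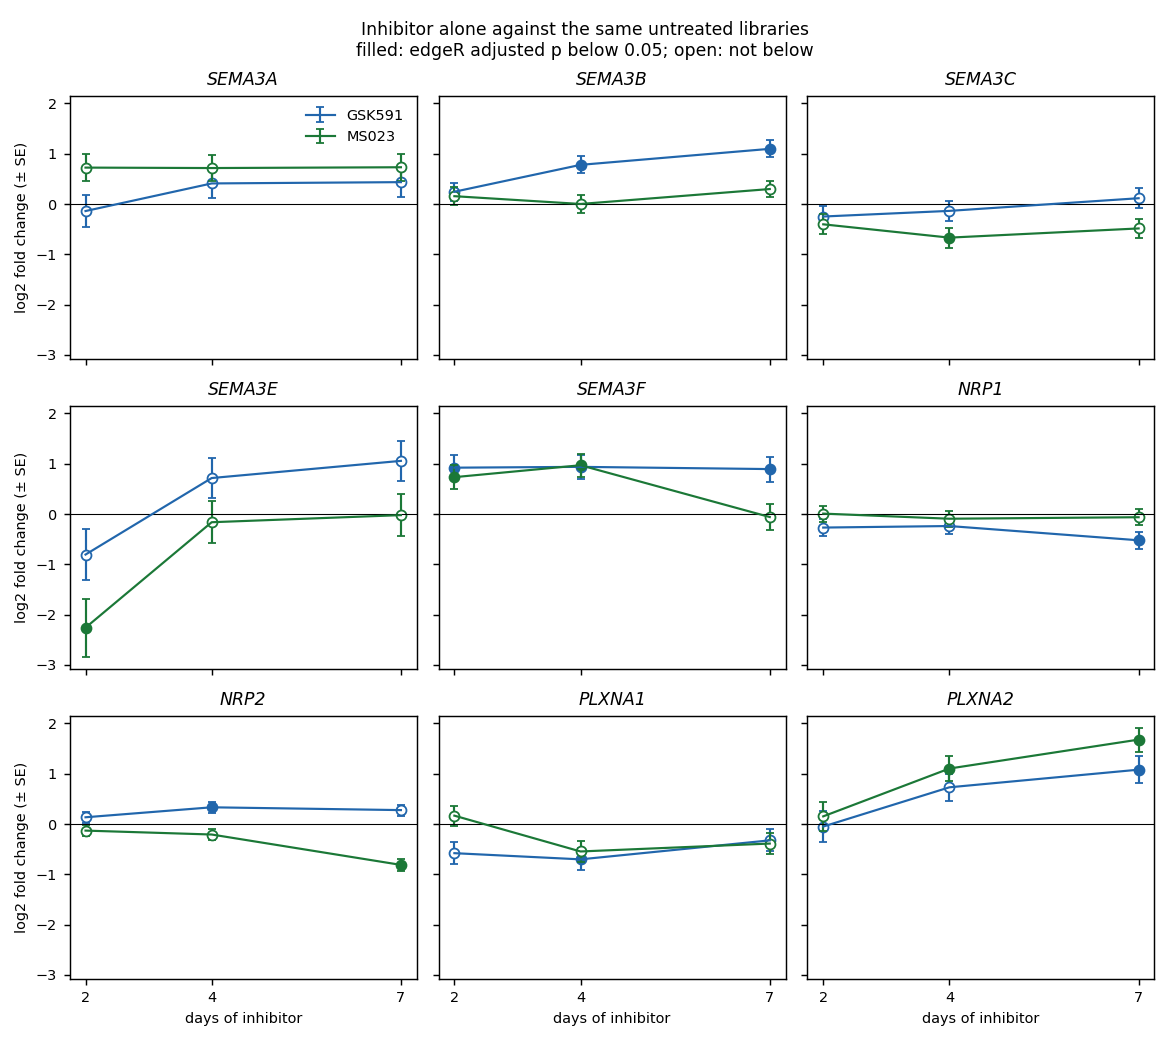
Log2 fold change against untreated cells at 2, 4 and 7 days of GSK591 or MS023 for each gene, with error bars of 1 SE from the edgeR fit and filled points where the adjusted p was under 0.05. At 7 days SEMA3B is at 1.10 with GSK591 and 0.30 with MS023, NRP2 at 0.28 and -0.81, and SEMA3F at 0.89 and -0.06.

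PLXNA2, a signalling receptor for semaphorins bound to neuropilins and also for class 6 semaphorins, rose the furthest of the 9 genes. It was at 3.56 and 2.62 CPM in untreated cells, 3.36 and 3.80 CPM after Dex for 15 min and 8.40 and 9.04 CPM after Dex for 3 h. Dex with GSK591 gave 7.15 and 7.39 CPM and Dex with MS023 10.4 and 7.44 CPM. All 6 libraries with Dex for 3 h stood above both untreated libraries and both libraries of 15 min. The rise with Dex alone was 2.83-fold (log2 fold change 1.50, SE 0.254, 95% interval 0.96 to 2.04, adjusted p = 1.99e-05), with GSK591 added 2.36-fold (adjusted p = 0.000445) and with MS023 added 2.88-fold (adjusted p = 1.01e-05). These 3 calls were kept in every alternative run.

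Both inhibitors were also followed by higher PLXNA2 by 7 days. GSK591 gave 2.55 and 3.33 CPM at 2 days, then 4.80 and 5.42 on day 4, and 7.32 and 5.63 on day 7. MS023 gave 3.13 and 3.69, 6.68 and 6.55, and 12.3 and 7.38 CPM at the same times. At 2 days the groups overlapped the untreated one, whereas the libraries of 4 and 7 days all lay above it. For GSK591 the rise was called at 7 days (log2 fold change 1.08, SE 0.268, adjusted p = 0.00374) and not at 4 days (0.73, adjusted p = 0.0525). For MS023 it was called at 4 days (1.10, SE 0.250, adjusted p = 0.00139) and at 7 days (1.68, SE 0.240, adjusted p = 1.11e-06). The GSK591 call at 7 days was lost without untreated replicate 2 (adjusted p = 0.105) or GSK591 replicate 1 (0.119), and the MS023 call at 4 days without untreated replicate 2 (0.0665). The difference between the inhibitors at 7 days was -0.60 (interval -1.06 to -0.13, adjusted p = 0.0724), GSK591 minus MS023.

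Dex added to the level reached under each inhibitor. GSK591 for 7 days and then Dex for 3 h gave 15.2 and 16.0 CPM, 2.40-fold above GSK591 alone (log2 fold change 1.26, SE 0.216, adjusted p = 2.23e-05) and 5.07-fold above untreated cells (adjusted p = 3.67e-11). MS023 for 7 days and then Dex for 3 h gave 17.4 and 20.5 CPM, 1.92-fold above MS023 alone (log2 fold change 0.94, SE 0.182, adjusted p = 0.000159) and 6.14-fold above untreated cells (adjusted p = 3.55e-13). These were the 2 highest groups for PLXNA2, and neither overlapped any other group. The step from MS023 alone was lost without MS023 replicate 2 (0.62, adjusted p = 0.0685), the lower of the 2 libraries. The Dex effect differed from that in cells without inhibitor by -0.24 for GSK591 (interval -0.96 to 0.48) and by -0.56 for MS023 (interval -1.23 to 0.11).

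PLXNA1, the other A-type plexin listed and a shared partner of both neuropilins, varied least. It was at 9.01 and 9.37 CPM in untreated cells and 9.46 and 10.3 CPM after Dex for 3 h (log2 value 0.10, interval -0.34 to 0.54). Its 1 call against untreated cells was at 4 days of GSK591, 5.19 and 6.12 CPM, a 1.63-fold fall (log2 fold change -0.70, SE 0.218, adjusted p = 0.0190). At 2 days GSK591 gave 6.72 and 5.63 CPM and MS023 8.51 and 12.1 CPM, a difference of -0.75 (interval -1.21 to -0.28, adjusted p = 0.0488). The first call was lost with DESeq2 (adjusted p = 0.0793) and without untreated replicate 1 (0.0703), untreated replicate 2 (0.107) or GSK591 replicate 1 (0.174). The second was lost with DESeq2 (0.213) and without GSK591 replicate 1 (0.139), GSK591 replicate 2 (0.389) or MS023 replicate 2 (0.586). It was also lost with median-ratio scaling (0.0518) and without mitochondrial and ribosomal RNA genes (0.0503).

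The groups that had both an inhibitor for 7 days and Dex were also set against untreated cells. With GSK591 and then Dex for 3 h SEMA3A was lower by 2.15 on the log2 scale (log2 fold change -2.15, adjusted p = 3.41e-05), SEMA3F higher by 1.10 (adjusted p = 0.000380) and SEMA3B higher by 0.51 (adjusted p = 0.0236). SEMA3B was thus above untreated cells there although Dex alone was followed by a lower level. Its call was lost with DESeq2 (0.0768), with no filter (0.0596) and without untreated replicate 1 (0.139), untreated replicate 2 (0.0833) or GSK591 then Dex replicate 2 (0.246). With MS023 and then Dex for 3 h SEMA3A was at -1.31 (adjusted p = 0.00204), SEMA3B at -0.73 (adjusted p = 0.00233), NRP1 at -0.67 (adjusted p = 0.00282) and SEMA3F at 1.23 (adjusted p = 4.03e-05). The SEMA3A call was lost without MS023 then Dex replicate 2 (0.0716) and the SEMA3B call without replicate 1 (0.0690). The NRP1 call was lost without untreated replicate 1 (0.0501) or MS023 then Dex replicate 2 (0.0810). With an inhibitor and then 15 min of Dex, SEMA3B was at 0.97, PLXNA2 at 1.04 and SEMA3F at 0.86 after GSK591, and PLXNA2 at 1.47 after MS023. Against GSK591 alone, the 15 min of Dex gave 0.65 for SEMA3C (interval 0.25 to 1.06, adjusted p = 0.0556) and 0.57 for PLXNA1 (interval 0.11 to 1.03, adjusted p = 0.188), neither of them called. Of the values against untreated cells, the SEMA3F call was lost without untreated replicate 1 (0.0781), untreated replicate 2 (0.0788) or GSK591 then Dex replicate 1 (0.0747), and the PLXNA2 call after GSK591 without untreated replicate 2 (0.125) or GSK591 then Dex replicate 2 (0.197).

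Adding an inhibitor to Dex for 3 h changed no listed gene past the threshold when compared with Dex alone. For GSK591, 0 of 9 genes and 0% of all genes were called by edgeR (1 of 9 had an unadjusted p under 0.05), and DESeq2 also called 0 of 9. For MS023, 0 of 9 and 0.196% of all genes were called (4 of 9 had an unadjusted p under 0.05), and DESeq2 called 0 but gave no adjusted p for 7. SEMA3A was 1.87 higher on the log2 scale with MS023 added (interval 0.78 to 2.96, unadjusted p = 0.000632, adjusted p = 0.0810) and SEMA3C 0.60 higher (interval 0.21 to 1.00, unadjusted p = 0.00222, adjusted p = 0.129), with no overlap of libraries in either. Both were called without Dex and MS023 replicate 1 (2.10 and 0.89, adjusted p = 0.00928 and 0.000516) and without the filter on low counts (adjusted p = 0.0241 and 0.0399). For SEMA3F the difference with GSK591 added was 0.01 (interval -0.42 to 0.44) and for NRP1 -0.01 (interval -0.37 to 0.35).

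Dex for 3 h after 7 days of GSK591 was called for 4 of 9 genes (9.85% of all genes), and after 7 days of MS023 for 5 of 9 (11.1%). At 15 min after either inhibitor 0 of 9 were called, where 2.09% and 2.07% of all genes were (2 and 1 of the 9 had an unadjusted p under 0.05). DESeq2 also called 0 there, with no adjusted p for 2 genes after each. No interaction of inhibitor and Dex was called for any of the 9 genes by edgeR or DESeq2, and DESeq2 gave no adjusted p at 3 h for 7 genes with GSK591 and 2 with MS023. At 15 min edgeR called 0.00436% of all genes for each inhibitor, with 0 of the 9 at an unadjusted p under 0.05, and at 3 h 0.223% for each, with 1 of the 9 (SEMA3F) for GSK591 and 0 for MS023. These interactions have wide intervals and do not show that the effects were alike. Between the inhibitors, 1, 2 and 4 of 9 genes were called at 2, 4 and 7 days, where 2.69%, 6.03% and 9.38% of all genes were. The 4 at 7 days were all higher with GSK591, as were 4.91% of all genes: NRP2, SEMA3B, SEMA3F (0.95, interval 0.45 to 1.45, adjusted p = 0.00475) and SEMA3C (0.60, interval 0.18 to 1.02, adjusted p = 0.0449). The SEMA3F difference was lost without GSK591 replicate 1 (0.107) or MS023 replicate 2 (0.0597). The SEMA3C difference was lost with DESeq2 (0.153) and without GSK591 replicate 1 (0.27, adjusted p = 0.650), MS023 replicate 1 (0.203) or MS023 replicate 2 (0.163).

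The wider semaphorin pathway was read from 4 lists of 66 genes, of which 62 were tested. With Dex for 3 h, 9 rose and 3 fell (19.4%), beside 10.5% of all genes, and the median was 0.12 against -0.01 for all genes. With GSK591 for 7 days 12 rose and 1 fell (21.0%, beside 13.2% of all genes, median 0.08 against 0.00), and with MS023 for 7 days 9 rose and 6 fell (24.2%, beside 13.6% of all genes, median 0.10 against 0.01). Among the 4 tested genes of the class 3 family that are not listed above (SEMA3G, PLXNA3, PLXNA4 and PLXND1), PLXNA3 was the one called with Dex. This further A-type plexin was at 4.00 and 3.02 CPM in untreated cells and 7.23 and 7.81 CPM after Dex for 3 h (log2 fold change 1.10, SE 0.245, adjusted p = 0.00117), and with Dex for 3 h it rose by 1.46 in cells that had GSK591 for 7 days and by 0.84 in those that had MS023. VEGFC, a growth factor that binds NRP2, fell from 10.1 and 9.47 to 3.83 and 4.15 CPM with Dex for 3 h (-1.30, SE 0.229, adjusted p = 4.15e-05) and to 3.05 and 3.33 CPM with MS023 for 7 days (-1.62, adjusted p = 3.91e-07). FARP1, an exchange factor that binds plexins, rose from 13.0 and 11.6 to 24.6 and 25.9 CPM with Dex (1.04, adjusted p = 3.92e-07). With GSK591 for 7 days PLXNB3, a plexin of the B family, rose by 1.28 (adjusted p = 5.37e-05), PLXNA3 by 0.78 (adjusted p = 0.0324) and FES, a tyrosine kinase that acts below plexins, by 0.77 (adjusted p = 0.00738). With MS023 for 7 days MICAL2, an oxidase of actin, fell by 1.40 (adjusted p = 4.54e-08) and CDK5, a kinase in SEMA3A signalling, by 0.91 (adjusted p = 0.00507). The alternative runs covered the 9 listed genes alone. None of these pathway changes was tried under another scaling or without single libraries.

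The authors' deposited table of fold changes against untreated cells, made from another counting, lists 8 of the 9 genes (PLXNA2 was not compared). In these 112 pairs of gene and group the authors' deposited table has 69 calls at an adjusted p of 0.05 and the fit here 38. As background, the authors' deposited table calls 3.93% of its genes with Dex for 15 min, 21.9% with Dex for 3 h, 21.7% with Dex and GSK591 and 19.8% with Dex and MS023. For GSK591 at 2, 4 and 7 days the authors' deposited shares are 14.7%, 26.8% and 23.8%, and with Dex added for 15 min or 3 h they are 23.5% and 34.2%. For MS023 at 2, 4 and 7 days the authors' deposited shares are 17.7%, 22.5% and 22.0%, and with Dex added 24.4% and 30.0%. The calls in common number 31, all 31 in the same direction, which is 44.9% of the authors' deposited calls and 81.6% of those here. Both sources come from this series, so this is no independent check. Some of the authors' deposited calls had the opposite sign here and were not called here. NRP2 and SEMA3E with GSK591 for 7 days and then Dex for 3 h were at -0.42 and -0.68 in the authors' deposited table, and 0.20 and 0.14 here. NRP1 with MS023 for 2 days was at -0.23 in the authors' deposited table and 0.01 here. The authors' deposited table gives -2.33 for SEMA3A with Dex for 3 h, 1.59 for SEMA3F and -1.16 for NRP1, on the log2 scale. In the authors' deposited table NRP1 is also called with Dex and MS023 (-1.10) and SEMA3E with Dex for 3 h (-1.75), neither of which was called here. SEMA3A is called higher there with MS023 at 2, 4 and 7 days (0.39, 0.69 and 0.50) and GSK591 at 4 and 7 days (0.38 and 0.52). Dex for 15 min after GSK591 or MS023 also has SEMA3A called higher there (0.43 and 0.68). SEMA3F is called lower there with MS023 and then Dex for 15 min (-0.52). These SEMA3A and SEMA3F values were not called here. The authors' deposited table gives 0.12 and 0.08 for SEMA3F at 2 days of GSK591 and MS023 and 0.43 and 0.22 at 4 days, none of them called there, in place of the 0.92, 0.73, 0.94 and 0.97 from the count table. Both sources call SEMA3F higher at 7 days of GSK591. For NRP2 at 2, 4 and 7 days of MS023 the authors' deposited values are -0.48, -0.55 and -1.09, all called there. For SEMA3C at the same times they are -0.58, -0.65 and -0.69, also called there. Here NRP2 was called at 7 days alone and SEMA3C at 4 days alone.

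**Figure D4:**
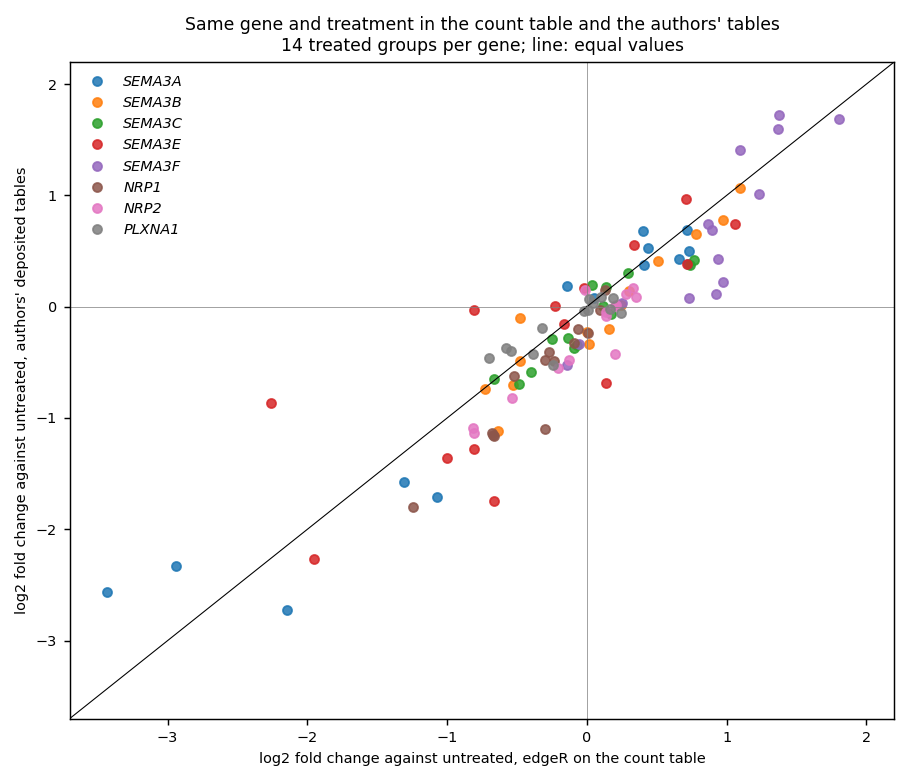
Log2 fold change against untreated cells from the count table (horizontal) and from the authors' deposited tables (vertical) for 8 genes in 14 groups. Each point is 1 gene in 1 group, and the 31 pairs called in both lie on the same side of 0 on both axes. Some pairs called in the authors' deposited tables alone do not.

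Over the 15 group means of log2 CPM, the listed genes most alike were SEMA3A and NRP1 (Pearson's r = 0.749), and the most opposed NRP1 and PLXNA2 (r = -0.654). These are descriptions over 15 groups that share libraries, scaling and the Dex treatment. Among the 11117 genes averaging 5 CPM or more, the pattern of SEMA3A was most like those of BAHCC1 (r = 0.973), ABCG2 (0.951) and SLC7A11 (0.944). The pattern of PLXNA2 was most like those of PPARA (0.927), CDKN1C (0.911) and NOTCH1 (0.908). That of SEMA3E was most like BRF1 (0.876), BOC (0.874) and RTL8A (0.843).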

How the data were processed

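PRO-seq was measured in 30 A549 libraries, 2 in each of 15 groups taken from the labels. The authors deposited raw counts per gene (58780 genes), made with featureCounts 2.0.1 of Subread on hg38 per the submitters' processing notes. The feature type and use of strand are not given in the sources used here. The authors also deposited comparison tables with a mean normalised signal (baseMean), log2 fold changes and adjusted p-values, from another counting, whose shrinkage is not given.

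Counts were analysed in R 4.3.3 with edgeR 4.0.16 (limma 3.58.1): filterByExpr by group (minimum count 10, minimum total 15), TMM scaling, and 1 robust quasi-likelihood fit of all groups. The 27 contrasts were tested two-sided, with Benjamini-Hochberg adjustment over 22919 genes and a threshold of 0.05. Intervals are 95%, from the SE and 15 residual degrees of freedom. All adjusted p-values of this work come from this fit, except where DESeq2 1.42.0 or another alternative is named. The fit was also run on counts simulated under its own model with known changes. That run cannot show how the fit behaves with library differences such as those seen here. Libraries held 8441211 to 13069598 counts, and the common biological coefficient of variation was 10.6%.

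The members and gene lists were chosen with earlier results of these data known. All 9 members are described. Among other pathway genes, those named had the largest called changes at a mean of at least 5 CPM, up to 3 in each of 3 comparisons, and genes alike in pattern were ranked by Pearson's r over 15 groups of log2(CPM + 0.5). Alternatives were median-ratio and total-count scaling, no filter, DESeq2, the compared groups alone, a replicate block, no mitochondrial or ribosomal RNA genes, and leaving out each library.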

Additional observations from a re-analysis of the deposited data

Results flagged for a closer look

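Of 27 pairs of gene and time point, 7 differed between GSK591 and MS023 in a direct test, where 6.03% of all genes were called over the same 3 time points (quasi-likelihood test of edgeR, p-values adjusted by Benjamini-Hochberg, 2 libraries a group). Values are log2 differences, GSK591 minus MS023. PLXNA1 was lower with GSK591 at 2 days (-0.75, adjusted p = 0.0488). At 4 days SEMA3B (0.78, adjusted p = 0.000791) and NRP2 (0.54, adjusted p = 0.000498) were higher with GSK591. At 7 days SEMA3B (0.80, adjusted p = 0.000298), SEMA3C (0.60, adjusted p = 0.0449), SEMA3F (0.95, adjusted p = 0.00475) and NRP2 (1.09, adjusted p = 4.55e-10) were higher with GSK591. The mitochondrial share of counts was 58.7% to 64.2% in the groups with MS023 for 7 days and 69.8% to 78.7% in those with GSK591. In the refit without mitochondrial and ribosomal RNA genes 6 of the 27 pairs were called, all higher with GSK591. Beyond that refit the part of this share in these differences was not tested. The PLXNA1 difference was lost without GSK591 replicate 1 or 2 or MS023 replicate 2, with DESeq2, with median-ratio scaling and without mitochondrial and ribosomal RNA genes. The SEMA3C difference was lost with DESeq2 and without any 1 of 3 of its 4 libraries, and at -0.42 reversed in direction with total counts as the only scaling. The SEMA3F difference was lost without GSK591 replicate 1 or MS023 replicate 2, and those of SEMA3B and NRP2 at 4 days without GSK591 replicate 1. With total counts as the only scaling the PLXNA1 difference alone was still called, and those of SEMA3B and SEMA3F at 7 days also changed direction.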

How the results depend on the processing

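Of the 64 calls, 24 were kept under every alternative run and 40 were lost under at least 1. The count of calls against untreated cells was 48 in the analysis reported and 39 to 56 under the alternatives that keep all libraries. The 39 were with DESeq2, where calls over all genes were 0.487 to 0.713 times those reported. The 56 were with total counts, where calls over all genes were 0.375 to 5.18 times those reported. Without single libraries the count against untreated cells was 30 to 48. For Dex with an inhibitor against Dex alone it was 0 to 3, for Dex after an inhibitor 7 to 10 and for GSK591 against MS023 5 to 7. With no filter on low counts, Dex with an inhibitor against Dex alone gave 2 calls in place of 0. Over all genes that setting gave 508 calls in place of 45 with MS023, and 2 in place of 0 with GSK591. In fits of the compared groups alone, GSK591 against MS023 gave 11 in place of 7. Over all genes these fits gave 1106, 2402 and 2960 calls at 2, 4 and 7 days, in place of 617, 1382 and 2149. The cause was not tested. Interactions gave 0 calls under every alternative.

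With total counts as the only scaling the median of all genes moved by -1.07 to 1.02, and 9 calls changed direction. NRP2 was then at 0.21, 0.076 and 0.48 with MS023 for 7 days alone, with Dex for 15 min and with Dex for 3 h. In the last of these groups SEMA3B was at 0.28 and NRP1 at 0.34, and SEMA3C was at 0.082 with MS023 for 4 days. Between GSK591 and MS023 at 7 days SEMA3B was at -0.26, SEMA3C at -0.42 and SEMA3F at -0.085. Of these 9 values, that of NRP2 with MS023 and then Dex for 3 h was called in its new direction (adjusted p = 0.0392). A further 18 calls kept their direction and were not called.

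Over 105 pairs of groups, the deviations of same-numbered libraries correlated in some pairs and were opposed in others (r = -0.453 to 0.493, median 0.0203, 22 over 0.1). They had no common direction, so the numbers were not taken as pairs. With a replicate block the counts of calls were 48, 0, 9, 0 and 7, as without it. Depth limits SEMA3A and SEMA3E most, with as few as 2 and 1 counts in a library.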
